A study of Mus musculus with 8 samples.

Results

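The nuclear genes for the subunits of the oxidative phosphorylation (OXPHOS) complexes and for cytochrome c were followed across 8 mouse neurosphere arrays. Members were taken by symbol: those starting with Ndufa, Ndufb, Ndufc, Ndufs, Ndufv, Uqcr, Cox4i, Cox5, Cox6, Cox7, Cox8 or Atp5, without the Ndufaf assembly factors, together with Sdha, Sdhb, Sdhc, Sdhd, Cyc1 and Cycs. Of 109 such symbols in the RefSeq annotation, 90 were protein coding and 19 were pseudogenes. A probe was present for 86 symbols, none of them a pseudogene, and 83 were measured, out of 13332 genes tested in all. The 3 members with a probe that was well above background on 0 of 8 arrays were Cox4i2, Cox7b2 and Cox8c. The protein-coding members without a probe were Ndufa4l2, Ndufb1, Ndufb4b and Ndufb4c. The measured members comprised 37 genes of complex I, 4 of complex II, 9 of complex III, 15 of complex IV, 17 of complex V and the cytochrome c gene Cycs.

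The cells were secondary hippocampal neurospheres of mice 7 to 9 weeks old, floating clusters of neural stem and progenitor cells grown with growth factors after 1 passage. Sirt1 KO and WT neurospheres came from 129/ICR mice and were harvested on day 6, with replicate 1 from females and replicate 2 from males. The resveratrol and DMSO groups were wild-type C57BL/6 cells, all from males, kept for 5 days and then for another 24 h with resveratrol (10, in a unit the label writes as "mm") or with the solvent. Each group had 2 arrays, and the labels do not say whether they are separate cultures or animals beyond the sex, so a p-value here reflects no more than how these arrays varied. The labels do not describe the Sirt1 allele, its deleted part or the driver of the deletion.

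Oxidative phosphorylation passes electrons from NADH through complex I, or from succinate through complex II, to complex III, cytochrome c and complex IV, and the proton gradient built on the way drives ATP synthesis by complex V. Apart from complex II, each complex joins nuclear subunits, the subject here, with subunits made from mitochondrial DNA. Neural stem cells are known to lean on glycolysis and to raise respiration as they differentiate, and SIRT1, an NAD-dependent deacetylase, is known to act on PGC-1alpha, a coactivator of mitochondrial biogenesis. Resveratrol is a plant polyphenol widely used to activate SIRT1.

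The 75th percentile of the processed signal ran from 257 (WT 2) to 910 (Sirt1 KO 1), and 53.1% to 72.0% of probes were well above background, with 0 saturated spots. The arrays lay on 3 slides per the file headers. Slide 1 held WT 1, resveratrol 1 and DMSO 1, slide 2 held Sirt1 KO 1, resveratrol 2 and DMSO 2, and slide 3, scanned on a day of its own, held Sirt1 KO 2 and WT 2. All 10 neural stem and progenitor markers examined, such as Nes and Sox2, were well above background on all 8 arrays. Of 6 microglial markers 5 were above background on no array, Csf1r being the exception, and of 5 endothelial markers 4 were on none. The Sirt1 probe with the higher signal read 0.36 and -0.12 in Sirt1 KO against 0.12 and 0.13 in WT, and the other read -1.07 and -1.97 against -1.38 and -1.04. Sirt1 KO 1 was above WT 1 on both. Since the deleted part is unknown, the probes check no genotype.

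All levels below are log2 processed signals centred on the 75th percentile of their array. Differences are log2 differences of group means, and no gene's level is set against another's. In bulk RNA a smaller share of expressing cells and less RNA per cell cannot be told apart.

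The OXPHOS subunits differed between the replicate numbers more than between the groups. Their median centred level was 5.26 and 6.72 on Sirt1 KO 1 and 2, 5.41 and 6.73 on WT 1 and 2, 5.46 and 6.88 on resveratrol 1 and 2, and 5.35 and 6.51 on DMSO 1 and 2. In every group the second array was the higher by more than 1 log2 unit, a median gene shift of 1.36 in Sirt1 KO, 1.22 in WT, 1.29 in resveratrol and 1.12 in DMSO. Over all genes the shifts were 0.28, 0.26, 0.24 and 0.17 in the same groups. Of the 83 members 79 were higher on replicate 2 in all 4 groups, against 44.8% of all genes, and 1 was lower in all 4, against 21% of all genes.

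The exception was Sdha, the flavoprotein that oxidizes succinate in complex II. On the probe used its level was 1.92 and 1.88 in Sirt1 KO, 1.99 and 1.73 in WT, 2.18 and 1.91 in resveratrol, and 2.21 and 2.11 in DMSO. Averaged over the groups, replicate 2 minus replicate 1 was -0.17 for Sdha, while the highest value among members was 1.93, for Cox7a2 of complex IV. By complex, the median of this shift was 1.27 for complex I, 0.51 for complex II, 1.35 for complex III, 1.38 for Cycs, 1.14 for complex IV and 1.27 for complex V. Complex II thus moved least with the replicate number in these arrays, a difference over 4 genes that was not tested.

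Before centring, the median member signal stayed between 14.73 (WT 2) and 15.14 (WT 1) on the log2 scale, while the 75th percentile lay between 8.0 and 9.83. The replicate 1 arrays had 66.9% to 72.0% of probes above background, and the replicate 2 arrays 53.1% to 63.5%. Their part in the shift was not tested. The shift was present in the resveratrol and DMSO groups, where all animals were male. On slide 2, Sirt1 KO 1 had a median member deviation of -0.78 from each gene's mean over the 8 arrays, and resveratrol 2 and DMSO 2 had 0.79 and 0.50. Under quantile normalization the median member shift was 0.37 and in the authors' deposited value table, which is already normalized, 0.31.

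**Figure D1:**
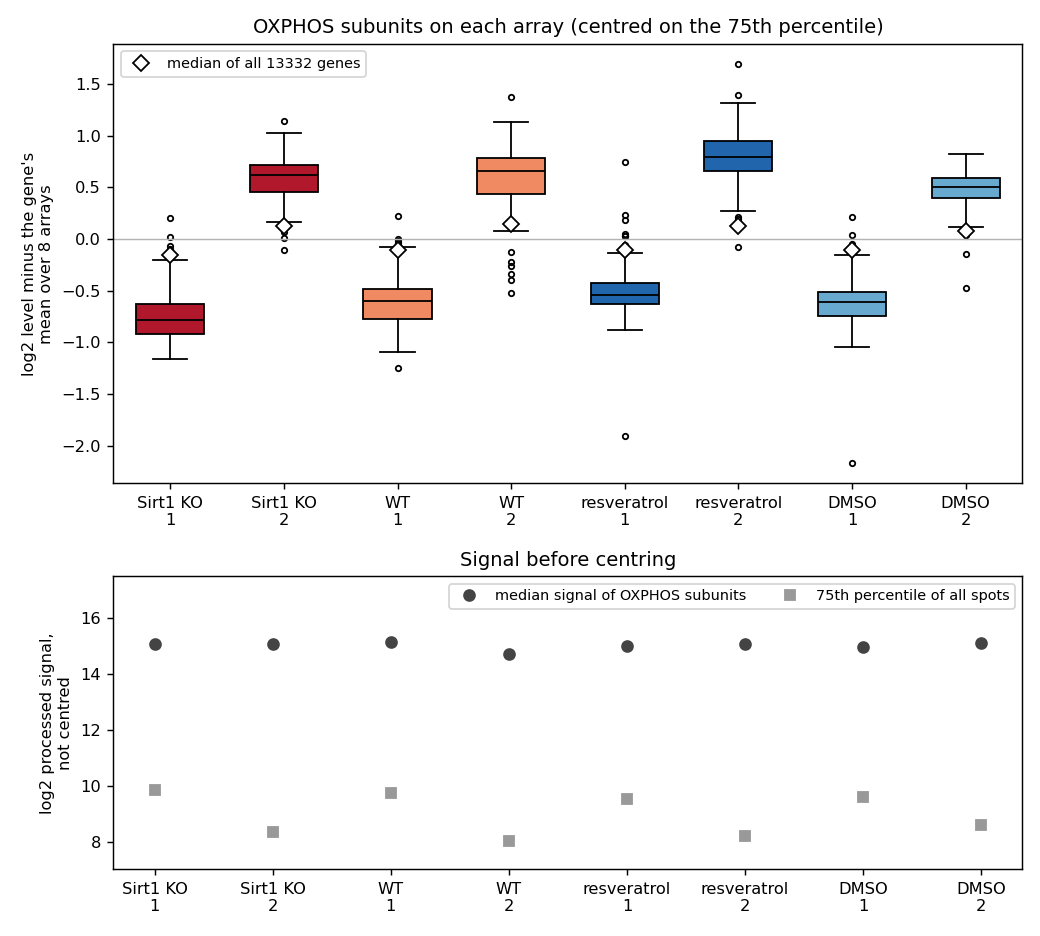
Upper panel, log2 level of the 83 OXPHOS subunits minus each gene's mean over the 8 arrays, by array (boxes, quartiles and median; whiskers and open circles, the remaining genes; diamonds, median of all 13332 genes). Lower panel, the median uncentred log2 signal of the subunits (circles) and the 75th percentile of each array (squares); the subunits stay near 15 while the percentile is lower on every second array.

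Ribosomal protein genes and assembly factors were also higher on replicate 2. Replicate 2 was the higher in all 4 groups for 81 of 82 cytosolic ribosomal proteins (median shift 1.23), for 70 of 78 mitochondrial ribosomal proteins (1.04) and for 37 of 43 assembly factors of the OXPHOS complexes (0.88). Tricarboxylic acid cycle genes had a median of 0.25, and glycolytic genes had 0.01, with 5 of 19 higher and 8 lower in all 4 groups.

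Resveratrol against DMSO asks what 24 h of the compound did to the subunit genes. The median difference over the 83 members was 0.20, against 0.01 over all genes, and 76 of the 83 differences were above 0. With resveratrol 68 members (81.9%) were higher in both same-numbered pairs of arrays, against 36.7% of all genes, and 2 (2.41%) were lower in both, against 32.3%. By limma over all 13332 genes, 0 members and 0 genes (0%) passed an adjusted p of 0.05, and 1 member and 201 genes (1.51%) had an unadjusted p under 0.05. With the replicate number as a block, 67 genes (0.503%) and 0 members passed.

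Each same-numbered pair lay on 1 slide, so the pairs give within-slide values. The median member difference was 0.10 on slide 1 and 0.29 on slide 2, with 0.00 and 0.04 over all genes. The excess over all genes depended on the scaling: under quantile normalization the member median was 0.07 with 40 members higher in both pairs, and in the authors' deposited table it was 0.06, again with 40. The groups were shifted little relative to the gap between replicates, so only 2 members had both resveratrol arrays above both DMSO arrays, against 10.3% of all genes, and 0 had both below, against 8.72%.

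The median difference with resveratrol was close to 0 in complex II and between 0.19 and 0.25 in the other complexes and Cycs. On the probe used for each gene, all 17 members of complex V, the ATP synthase, were higher in both pairs, with differences from 0.12 to 0.28 and a median of 0.20. The 3 isoform genes of the proton-carrying c ring, Atp5g1, Atp5g2 and Atp5g3, had 0.14, 0.16 and 0.28. The F1 subunits Atp5a1 and Atp5b had 0.25 and 0.28 on the probe used, but their other probes, all well above background on 8 arrays, had -0.0009 for Atp5a1 and -0.06 and -0.01 for Atp5b.

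In complex I, which takes electrons from NADH, the median was 0.19, with 28 of 37 higher in both pairs and 0 lower. Complex III had a median of 0.22 with 7 of 9 higher in both, and the electron carrier Cycs stood at 4.53 and 6.16 in resveratrol against 4.43 and 5.76 in DMSO, a difference of 0.25 on the probe used and of 0.06 and -0.02 on its other probes. Complex II had a median of -0.002, with Sdhd higher and Sdha lower in both pairs on the probe used. The other Sdha probe read 1.49 and 1.11 in resveratrol against 1.29 and 1.33 in DMSO, so there Sdha was higher in pair 1. The differences of its genes were -0.11 for Sdha, -0.0049 for the iron-sulfur subunit Sdhb, 0.0009 for the membrane anchor Sdhc and 0.13 for the other anchor, Sdhd.

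**Figure D2:**
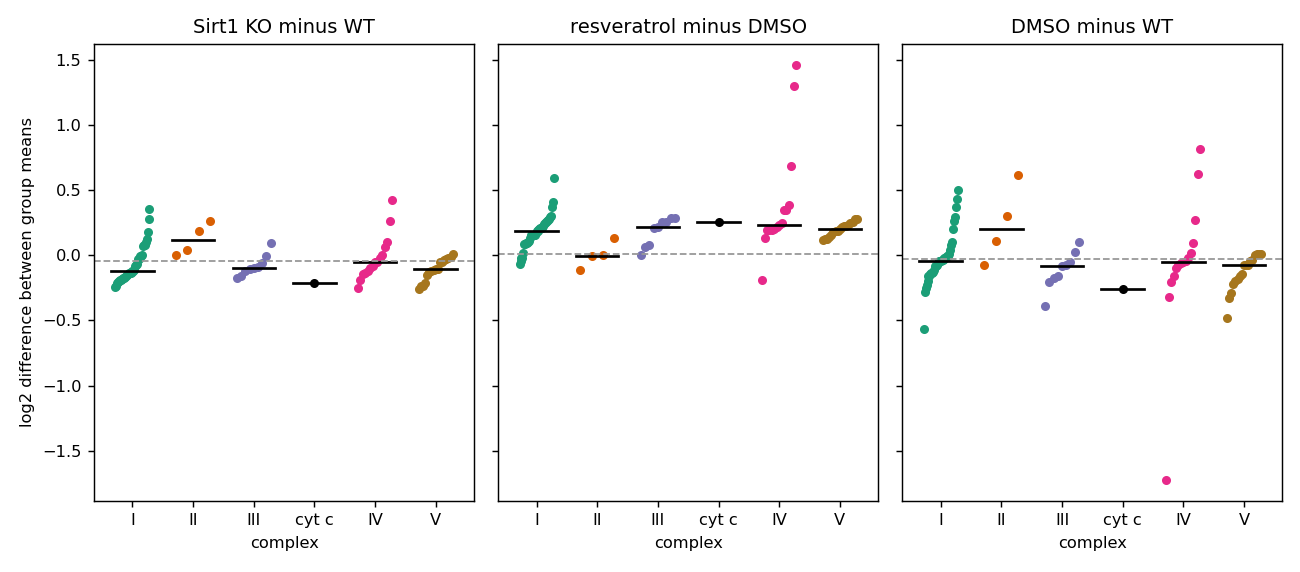
Log2 difference of group means for each OXPHOS subunit by complex, for the 3 comparisons named above the panels (points, genes in rising order; black bars, median of the complex; dashed line, median of all 13332 genes). With resveratrol the 17 complex V genes lie between 0.12 and 0.28, and Cox6b2 and Cox8b of complex IV stand highest, at 1.46 and 1.30.

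Complex IV, which reduces oxygen, held the largest differences with resveratrol, and they were in isoform genes of restricted expression. Several of its nuclear subunits come in a form used by most tissues and a form known from testis (Cox6b2) or from heart and skeletal muscle (Cox6a2, Cox7a1 and Cox8b). Cox6b2, the testis form of a subunit on the side where cytochrome c docks, stood at 2.71 and 3.66 in resveratrol, 1.62 and 1.82 in DMSO, 0.81 and 2.22 in Sirt1 KO, and 1.27 and 1.63 in WT. Both resveratrol arrays were above the other 6. The difference from DMSO was 1.46 (SE 0.51, n = 2 arrays per group), or 2.76-fold, with 1.09 and 1.84 in the pairs. Its unadjusted p of 0.0257 by limma was the lowest of the members, and its adjusted p was 0.9999, or 0.0643 with the replicate block.

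Cox8b stood at 1.41 and 2.77 in resveratrol, 0.67 and 0.90 in DMSO, 0.74 and 2.32 in Sirt1 KO, and 0.59 and 1.63 in WT. The resveratrol arrays were above the DMSO arrays but overlapped those of the other groups. The difference from DMSO was 1.30 (SE 0.66, n = 2 per group), or 2.46-fold, with 0.73 and 1.87 in the pairs, at a limma adjusted p of 0.9999, or 0.0804 with the replicate block. Cox7a1 stood at 1.28 and 2.34 in resveratrol, 0.89 and 1.36 in DMSO, 0.15 and 1.36 in Sirt1 KO, and -0.20 and 1.20 in WT. For Cox7a1 resveratrol 1 lay just below DMSO 2, so these groups overlapped, with a difference of 0.69 (SE 0.62) and pairs of 0.39 and 0.98.

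Cox6a2, the fourth gene of the restricted kind, did not share this pattern. It stood at -0.13 and 0.29 in resveratrol, -0.12 and 0.66 in DMSO, -1.16 and 0.27 in Sirt1 KO, and -1.23 and 0.14 in WT, with a resveratrol minus DMSO difference of -0.19 (SE 0.62). The widely expressed counterparts differed by 0.25 for Cox6b1, 0.20 for Cox8a, 0.35 for Cox7a2 and 0.22 for Cox6a1, inside the range of the rest of the complex. Cox4i1, the widely expressed form of the subunit that starts assembly of the complex, differed by 0.20, and Cox7a2l, which takes part in joining complexes III and IV, by 0.19. The direction of Cox6b2, Cox7a1 and Cox8b in this comparison was the same under all 20 alternatives, with ranges of 0.99 to 1.94, 0.16 to 1.21 and 0.62 to 1.98. Most of these alternatives could not change it. They are the blocks, the fits without an intensity trend or with only the groups compared, and leaving out a Sirt1 KO or WT array. The probe filters and the mean of a gene's probes could not either, since none of these genes had a second probe. For Cox6b2 and Cox8b the resveratrol and DMSO arrays did not overlap, so leaving out any of those could not change the direction.

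**Figure D3:**
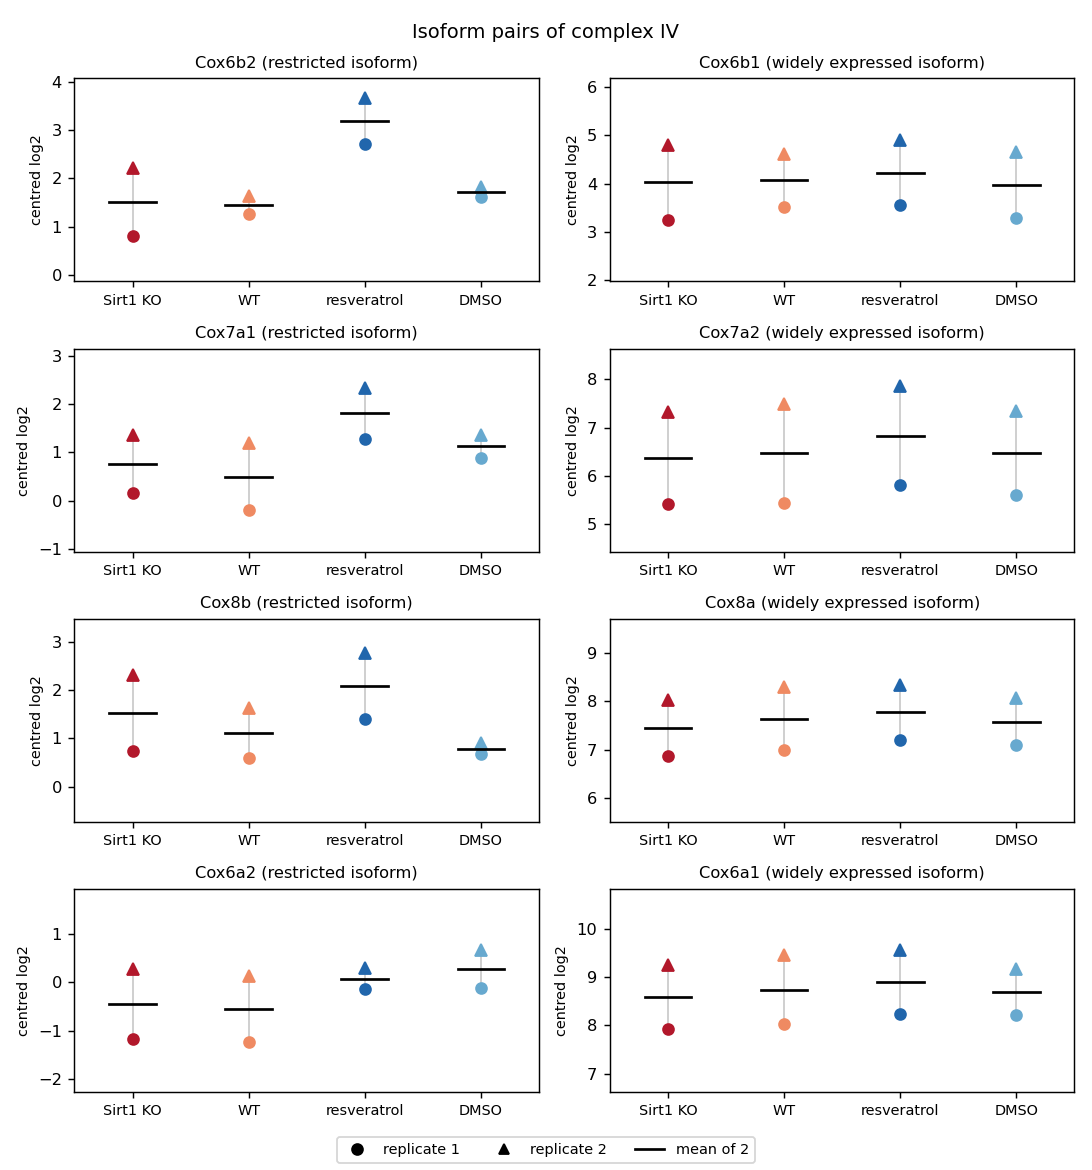
Centred log2 level of complex IV isoform pairs on each array (circles, replicate 1; triangles, replicate 2; bars, mean of 2 arrays), the restricted isoform on the left and the widely expressed one on the right, each panel spanning the same log2 range around its own mean. Cox6b2 has both resveratrol arrays, 2.71 and 3.66, above the other 6 arrays, and Cox6b1 does not.

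The start-site sequences of the Cox6b, Cox7a and Cox8 isoform pairs, and of Cycs as a widely expressed gene outside complex IV, are given. They are shown because the members of a pair had different values with resveratrol. The Cox6a1 and Cox6a2 pair is not shown, though its members also had different values. They were taken from RefSeq on GRCm38.p6, from 250 bases before to 50 bases after the annotated start, 5′ to 3′ on the strand of the gene. Capitals mark matches on either strand to 6 letter strings: GCATGCGC for NRF1, CCGGAAG for ETS factors including GABP, ATGGCGG for YY1, AAGGTCA for the estrogen-related receptors, TGACGTCA for the cyclic AMP response element and TATAAA for the TATA box. No matches of different strings overlapped in the members' promoters.
Cox6b2 (chr7:4753045-4753344, minus strand) and Cox6b1 (chr7:30626065-30626364, minus strand) are shown first.
Cox6b2: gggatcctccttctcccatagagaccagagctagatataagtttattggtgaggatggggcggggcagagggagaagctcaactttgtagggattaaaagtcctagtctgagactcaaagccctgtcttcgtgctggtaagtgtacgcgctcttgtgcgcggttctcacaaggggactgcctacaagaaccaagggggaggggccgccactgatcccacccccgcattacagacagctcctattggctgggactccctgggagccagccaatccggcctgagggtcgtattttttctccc
Cox6b1: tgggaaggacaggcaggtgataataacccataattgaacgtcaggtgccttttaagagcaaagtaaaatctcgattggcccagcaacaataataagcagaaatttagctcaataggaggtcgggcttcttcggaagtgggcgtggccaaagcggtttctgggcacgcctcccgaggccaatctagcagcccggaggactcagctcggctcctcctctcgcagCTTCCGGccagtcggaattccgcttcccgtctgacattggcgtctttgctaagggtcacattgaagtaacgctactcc
Cox7a1 (chr7:30183921-30184220, plus strand) and Cox7a2 (chr9:79759804-79760103, minus strand) follow.
Cox7a1: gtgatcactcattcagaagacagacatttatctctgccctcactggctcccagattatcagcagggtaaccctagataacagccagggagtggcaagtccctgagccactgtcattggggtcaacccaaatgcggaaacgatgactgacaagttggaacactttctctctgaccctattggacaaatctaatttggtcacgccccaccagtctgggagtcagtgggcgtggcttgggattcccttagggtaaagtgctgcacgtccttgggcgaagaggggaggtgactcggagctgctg
Cox7a2: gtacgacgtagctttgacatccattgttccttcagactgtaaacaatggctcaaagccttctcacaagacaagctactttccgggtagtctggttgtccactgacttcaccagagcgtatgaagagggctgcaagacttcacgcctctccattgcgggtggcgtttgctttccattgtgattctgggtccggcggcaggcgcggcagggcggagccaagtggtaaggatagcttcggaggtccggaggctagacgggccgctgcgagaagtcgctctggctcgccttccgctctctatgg
Cox8b (chr7:140900397-140900696, minus strand), Cox8a (chr19:7217567-7217866, minus strand) and Cycs (chr6:50566520-50566819, minus strand) complete the set.
Cox8b: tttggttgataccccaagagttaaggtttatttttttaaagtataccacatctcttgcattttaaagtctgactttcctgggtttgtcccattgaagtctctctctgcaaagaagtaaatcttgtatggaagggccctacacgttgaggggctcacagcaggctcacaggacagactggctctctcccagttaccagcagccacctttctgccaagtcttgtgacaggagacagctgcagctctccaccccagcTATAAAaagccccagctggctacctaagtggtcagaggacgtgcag
Cox8a: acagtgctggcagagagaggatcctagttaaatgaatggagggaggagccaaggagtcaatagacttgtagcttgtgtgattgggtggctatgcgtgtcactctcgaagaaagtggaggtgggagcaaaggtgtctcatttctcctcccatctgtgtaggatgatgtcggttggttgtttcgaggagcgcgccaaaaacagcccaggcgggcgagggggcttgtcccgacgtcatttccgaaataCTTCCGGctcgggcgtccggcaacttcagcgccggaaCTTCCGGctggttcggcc
Cycs: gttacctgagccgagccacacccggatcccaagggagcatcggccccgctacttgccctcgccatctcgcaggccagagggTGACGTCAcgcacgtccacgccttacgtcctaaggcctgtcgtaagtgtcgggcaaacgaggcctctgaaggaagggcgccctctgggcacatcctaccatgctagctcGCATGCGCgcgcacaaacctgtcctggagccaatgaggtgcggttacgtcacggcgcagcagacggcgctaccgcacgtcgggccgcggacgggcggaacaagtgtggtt

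In these windows the Cox6b2, Cox7a1 and Cox7a2 sequences held none of the 6 strings. Cox8b held the TATA string, which began at base 5 counted from the annotated start and so lay downstream of it. Cox6b1 held 1 and Cox8a held 2 matches to the ETS string, on the reverse strand, and Cycs held the NRF1 and the cyclic AMP response strings. Promoters were at hand for 69 of the 83 measured members (74 promoters) and for 17492 protein-coding genes (21263 promoters). The NRF1 string was in 14.9% of the member promoters and 3.52% of all, the ETS string in 23% and 11.6%, the YY1 string in 14.9% and 5.25%, and the estrogen-related receptor string in 10.8% and 4.08%. The cyclic AMP response string was in 6.76% and 2.23%, and the TATA string in 10.8% and 12.6%. These are matches of letters only.

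Ndufa4, named as a complex I subunit but found in complex IV, showed how much a single array could carry. Complexes were assigned by symbol, so Ndufa4 is counted with complex I here. It stood at 5.00 and 7.00 in resveratrol, 4.98 and 5.83 in DMSO, 4.82 and 6.74 in Sirt1 KO, and 5.02 and 6.92 in WT. DMSO 2 alone lay about 1 unit below the other replicate 2 arrays. The resveratrol minus DMSO difference of 0.59 (SE 0.999) was 0.02 in pair 1 and 1.17 in pair 2.

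**Figure D4:**
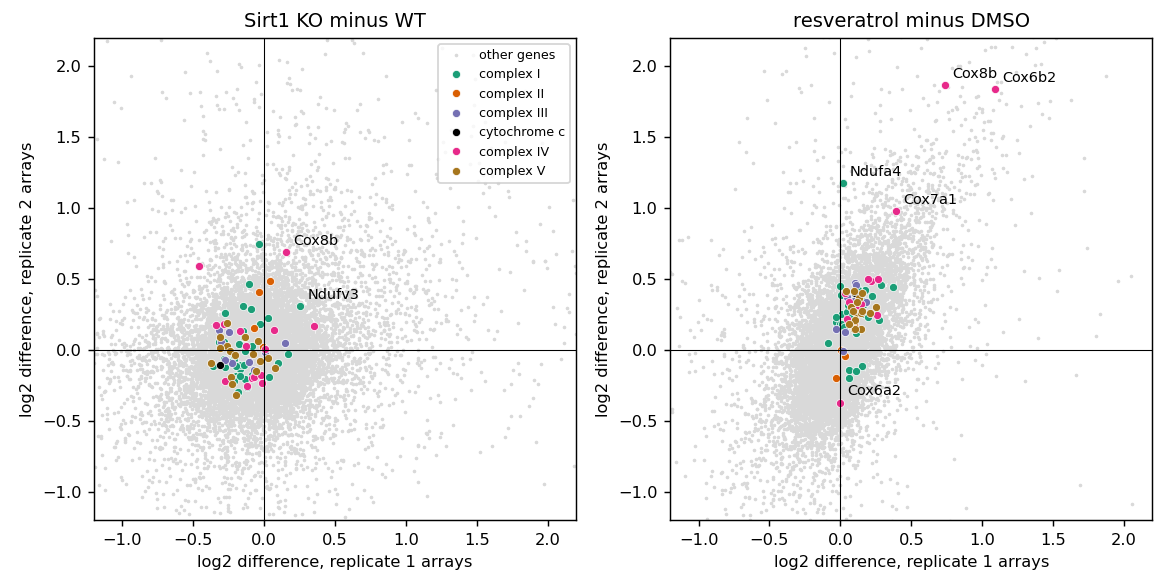
Log2 difference in pair 1 (replicate 1 arrays, x axis) against pair 2 (replicate 2 arrays, y axis) for Sirt1 KO minus WT (left) and resveratrol minus DMSO (right); coloured points are OXPHOS subunits by complex and grey points other genes, some of which lie outside the axes. With resveratrol 68 of 83 subunits lie in the upper right quadrant, and with Sirt1 KO 40 lie in the lower left.

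Markers of other cell types were read beside the resveratrol values. Of 7 measured oligodendrocyte lineage markers 6 were lower in both pairs, and of 5 measured neuron markers 3, against 32.3% of all genes. Levels were summed over all markers with a probe, in multiples of the 75th percentile. The 8 oligodendrocyte lineage markers summed to 146 and 156 in resveratrol against 157 and 200 in DMSO. The 6 neuron markers summed to 9.16 and 8.13 in resveratrol against 10.4 and 9.67 in DMSO. In both lists the sums of the groups did not overlap, but the highest marker weighs most in a sum. Olig1 read 6.70 and 7.02 in resveratrol against 6.80 and 7.37 in DMSO, and Map2 2.92 and 2.52 against 3.12 and 2.80. Of 6 astrocyte markers 3 were higher and 1 was lower in both pairs, against 36.7% and 32.3% of all genes. Their sums overlapped, at 89.4 and 84 in resveratrol against 93.5 and 85.1 in DMSO. Gfap read -1.84 and -1.46 in resveratrol against -3.46 and -3.22 in DMSO, the highest difference of the list at 1.69. Of the defining markers of the oligodendrocyte lineage Mog was above background on no array. Their part in the subunit values was not tested.

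Sirt1 KO against WT asks how the subunit genes differed between the cells labelled Sirt1 KO and their wild-type counterparts. The median difference over the 83 members was -0.10, against -0.04 over all genes, and the members ran from -0.26 (Atp5j, a stalk subunit of complex V) to 0.42 (Cox8b). In Sirt1 KO 40 members (48.2%) were lower in both pairs, against 34.1% of all genes, and 8 (9.64%) were higher in both, against 22.2%. By limma 0 members and 0 genes (0%) passed an adjusted p of 0.05, and 0 members and 158 genes (1.19%) had an unadjusted p under 0.05. With the replicate block 29 genes (0.218%) and 0 members passed, and with slide as a block 0 and 0.

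The male pair lay on slide 3 and gave a member median of -0.03, as over all genes. The female pair spanned slides 2 and 1 and gave -0.15, against -0.06 over all genes. The median was -0.56 with slide as a block and 0.31 when background was corrected with normexp on local background, so its sign was not stable to the processing. It was -0.04 with quantile normalization, with normexp on 1 background per array and in the authors' deposited table.

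The 1 member whose arrays did not overlap was Sdhc, a membrane anchor of complex II, against 7.09% of all genes higher in this way and 7.81% lower. Sdhc stood at 4.35 and 4.60 in Sirt1 KO against 4.31 and 4.11 in WT, and at 4.11 and 4.53 in resveratrol against 4.10 and 4.53 in DMSO. The Sirt1 KO arrays were the higher, by little on replicate 1, and the resveratrol and DMSO arrays matched within each pair. The Sirt1 KO minus WT difference was 0.26 (SE 0.31, n = 2 per group, limma adjusted p = 0.9999), or 0.04 and 0.49 in the pairs. It was above 0 under all 20 alternatives, from 0.14 to 0.67. Most of these could not change its sign. They are the replicate block, the fits without an intensity trend or with only these groups, and leaving out a resveratrol or DMSO array. The probe filters and the mean of probes could not either, since Sdhc had no second probe. Leaving out a Sirt1 KO or WT array could not, since these groups did not overlap.

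By complex, the median differences in Sirt1 KO were -0.12 for complex I, 0.11 for complex II, -0.10 for complex III, -0.05 for complex IV and -0.11 for complex V. The complex II median was -0.02 in pair 1 and 0.28 in pair 2, so its sign rested on pair 2. Complex I had 20 of 37 members lower and 2 higher in both pairs, and complex V had 9 of 17 lower and 0 higher. Complex II had 0 of 4 lower and 1 higher, complex III 4 of 9 lower and 1 higher, and complex IV 6 of 15 lower and 4 higher. Cycs stood at 4.45 and 5.83 in Sirt1 KO against 4.76 and 5.94 in WT, a difference of -0.21 with -0.31 and -0.11 in the pairs, and of -0.09 and -0.02 on its other probes.

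Among the isoform genes, Sirt1 KO minus WT was 0.42 (SE 0.66) for Cox8b, 0.26 (SE 0.62) for Cox7a1, 0.10 (SE 0.62) for Cox6a2 and 0.06 (SE 0.51) for Cox6b2. Cox8b, Cox7a1 and Cox6a2 were higher in both pairs, and Cox6b2 had -0.46 in pair 1 and 0.59 in pair 2. The widely expressed forms had -0.19 for Cox8a, -0.10 for Cox7a2, -0.14 for Cox6a1, -0.05 for Cox6b1 and -0.05 for Cox4i1. Cox7a2l had 0.01, and Ndufa4 had -0.19. All of these differences were smaller than their standard errors in the fit without a block. With the replicate block the standard errors of Cox8b (0.25), Cox7a1 (0.16), Cox8a (0.096) and Cox6a1 (0.11) were smaller than the differences. The lowest limma adjusted p of these genes with that block was 0.433, for Cox8a. Each difference changed sign under 2 to 4 of the 20 alternatives, which include leaving out each array.

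Of 6 measured astrocyte markers, 4 were higher in both pairs in Sirt1 KO, against 22.2% of all genes. Their sums were 76.5 and 111 in Sirt1 KO against 48.8 and 81.8 in WT, which overlapped between the groups, and Gfap and Aqp4 were above background on 5 of 8 arrays. Their part in the subunit values was not tested.

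The test of whether the resveratrol difference departed from the Sirt1 KO difference found 0 members and 0 genes (0%) at a limma adjusted p of 0.05, and 0 members and 125 genes (0.938%) at an unadjusted p under 0.05. With the replicate block 39 genes (0.293%) and 0 members passed. The member median of this difference of differences was 0.31, against 0.06 over all genes, and 73 of 83 were above 0. Cox6b2 had the highest value among members, 1.40, and complex II had a median of -0.17. The pairs of groups differ in strain, schedule and sex as well as in treatment, which cannot be told apart here.

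DMSO against WT sets the control cultures side by side. Strain, solvent, culture schedule and the sex of the mice differ together and cannot be told apart. The member median was -0.06, against -0.03 over all genes, and both pairs had 14 members higher in DMSO and 27 lower (16.9% and 32.5%, against 27.1% and 33.7% of all genes). Pairs in this comparison match arrays across the arms by replicate number alone and are not paired replicates. By limma 10 genes (0.075%) and 0 members passed an adjusted p of 0.05, and 751 genes (5.63%) and 0 members had an unadjusted p under 0.05. With slide as a block 138 genes (1.04%) and 0 members passed. With the replicate block the counts were 1545 genes (11.6%) and 7 members, but that block is fitted within each arm, pairs no DMSO array with a WT array and takes the spread between replicates out of the error, so it is no test of this difference.

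Cox7c, a small membrane subunit of complex IV, had the lowest difference of any member. It stood at 1.36 and 3.84 in DMSO against 3.75 and 4.90 in WT, and at 1.62 and 4.34 in resveratrol against 3.74 and 4.67 in Sirt1 KO. Replicate 1 of both C57BL/6 groups was more than 2 units below both 129/ICR groups, and replicate 2 was the closer, so that DMSO and WT overlapped. DMSO minus WT was -1.73 (SE 1.10, n = 2 per group), or 3.31-fold lower, with -2.39 and -1.06 in the number-matched pairs. Its limma adjusted p was 0.9999, and 0.279 with slide as a block.

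Cox6a2 and Cox7a1, the muscle forms, had DMSO minus WT differences of 0.82 (SE 0.62) and 0.63 (SE 0.62), with limma adjusted p of 0.9999 for both. The number-matched pairs gave 1.11 and 0.52 for Cox6a2 and 1.09 and 0.16 for Cox7a1. Ndufc2, an accessory subunit of complex I, stood at 7.02 and 8.22 in DMSO and 7.24 and 8.60 in resveratrol, against 6.56 and 7.81 in WT and 6.35 and 7.59 in Sirt1 KO, so that on each replicate number both C57BL/6 arrays were the higher.

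Without a block, both DMSO arrays were above both WT arrays for 2 of 83 members, against 12.4% of all genes, and both were below for 0, against 13.8%. Sdha, whose levels are given above, was among the 2: both DMSO arrays, 2.21 and 2.11, were above WT at 1.99 and 1.73. The difference for Sdha was 0.30 on the probe used (SE 0.22, n = 2 per group), with a limma adjusted p of 0.9999. On its other probe, also well above background on 8 arrays, DMSO read 1.29 and 1.33 against 1.67 and 0.71 in WT. These overlapped, with a difference of 0.12.

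For 18 members more than 1 probe was kept, and the probe with the highest mean stood for the gene. The sign of the other 23 probes matched it for 19 of 23 in Sirt1 KO minus WT, 19 of 23 in resveratrol minus DMSO, 16 of 23 in DMSO minus WT and 22 of 23 in replicate 2 minus replicate 1. The 4 probes of opposite sign with resveratrol belonged to Atp5a1, Atp5b and Cycs. Sizes differed as well. The replicate shift of Atp5b, the catalytic beta subunit, was 1.27 on the probe used and 0.13 and 0.37 on the others, and that of Ndufv3, an accessory subunit of the NADH-binding module, was 1.18 against 0.07 and -0.17. For Ndufa12, an accessory subunit of complex I, DMSO minus WT was -0.02 on the probe used and -0.73 and -0.81 on the others. Both Sdha probes had a mean shift below 0, -0.17 and -0.43. The probe not used read 1.29 and 1.33 in DMSO, so it was not lower on replicate 2 in that group.

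Genes that act with the subunits had lower medians with resveratrol, and none of these lists had a gene past an adjusted p of 0.05 by limma in Sirt1 KO minus WT or resveratrol minus DMSO. For assembly factors, resveratrol minus DMSO had a median of 0.10 with 27 of 43 higher in both pairs and 8 lower. Mitochondrial ribosomal proteins had 0.06 with 39 of 78 higher and 10 lower, import genes 0.05 with 11 of 24 higher and 5 lower, and carriers 0.14 with 9 of 12 higher and 0 lower. The regulators of mitochondrial biogenesis, such as Ppargc1a, Nrf1 and Tfam, had a median of -0.10 with 3 of 18 higher and 9 lower. Tricarboxylic acid cycle genes had 0.05 with 10 of 19 higher and 2 lower. Cytosolic ribosomal proteins, which are not mitochondrial, had 0.12 with 62 of 82 higher and 7 lower.

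In Sirt1 KO minus WT the same lists had medians of -0.06 for assembly factors, -0.09 for mitochondrial ribosomal proteins, -0.07 for import genes, -0.07 for carriers, -0.06 for biogenesis regulators, 0.01 for the tricarboxylic acid cycle and -0.10 for cytosolic ribosomal proteins. In that order, 46.5%, 47.4%, 70.8%, 41.7%, 44.4%, 21.1% and 57.3% were lower in both pairs, against 34.1% of all genes. Higher in both were 9.3%, 7.69%, 8.33%, 16.7%, 16.7%, 36.8% and 7.32%, against 22.2%. Lower shares near or above the 48.2% of the subunits were thus found in other lists. Glycolytic genes had a median of 0.36 in Sirt1 KO minus WT and 14 of 19 higher in both pairs, and 0.22 in resveratrol minus DMSO with 12 of 19 higher. In DMSO minus WT, glycolytic genes had a median of 0.63 with 17 of 19 higher in both number-matched pairs, where OXPHOS subunits had -0.06 and 14 of 83.

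**Figure D5:**
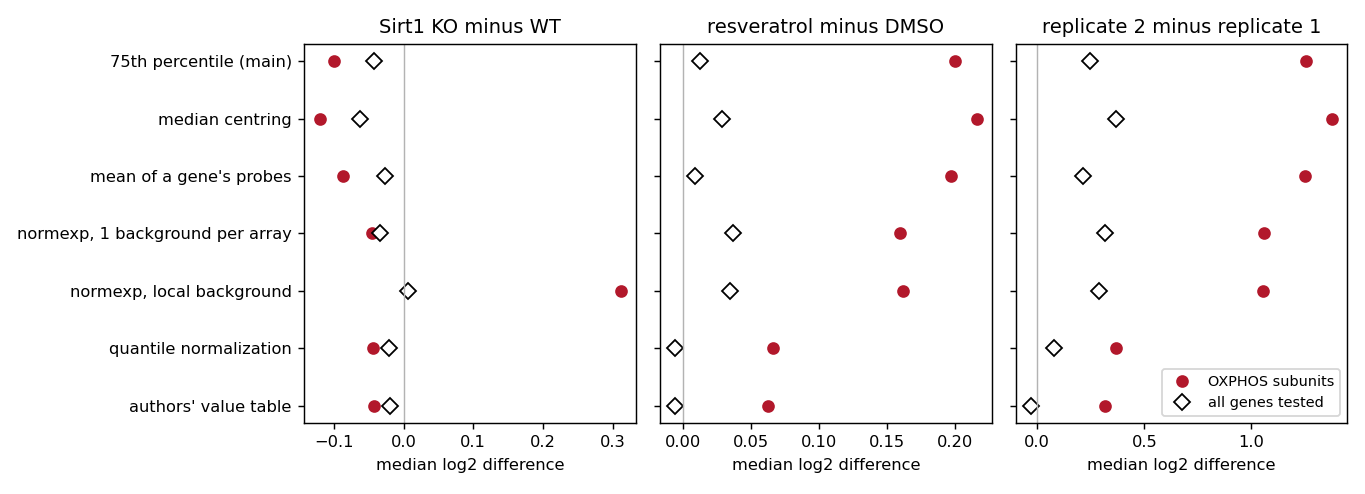
Median log2 difference of the OXPHOS subunits (circles) and of all genes tested (diamonds) under 7 ways of scaling the arrays, for the genotype comparison, the treatment comparison and the replicate shift averaged over the groups. The resveratrol median is above that of all genes in each, from 0.06 to 0.22, and the Sirt1 KO median changes sign with normexp on local background.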

How the data were processed

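RNA from 8 samples was hybridized to 1-colour Cy3 Agilent arrays and read with Agilent Feature Extraction 10.7, per the submitters' processing notes (the headers give 10.7.3.1). Each deposited scanner file gives an intensity per spot, which the software had corrected for background, per the file headers, with no normalization between arrays. The authors' deposited value table holds log2 values whose software is not given in the sources used here. Their scale followed the log2 scanner values (correlations of 0.993 to 0.999), and their medians were 6.01 on slide 3 and 6.28 on the others. It served as an alternative.

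Of 45018 spots 1639 were controls and left out, as were flagged spots (45 to 103 per array). Spots of a probe were averaged (41174 probes). The log2 intensity was centred on the array's 75th percentile. A probe was kept if some group had both of its arrays well above background there (26362 probes), and 14256 probes matched no symbol in RefSeq and were left out. A gene with several kept probes was read from the one with the highest mean. Groups were compared over all 13332 genes with limma 3.58.1 in R 4.3.3 (4 group means, 8 arrays, eBayes with an intensity trend, two-sided, Benjamini-Hochberg, threshold 0.05). The fit was also run on simulated data in which the arrays varied independently. Same-numbered arrays here did not, so that run does not show how the fit handles the shift between replicates. With 2 arrays per group, their number limits the precision.

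Deviations of same-numbered arrays from their group means correlated across genes at 0.737 for Sirt1 KO with WT, 0.834 for resveratrol with DMSO and 0.596 for DMSO with WT. The number is the slide in the treatment arm per the file headers. In the genotype arm it is the sex per the labels and also slide and scan day, since both replicate 2 arrays lay on slide 3, the only slide of the second of 2 scan days. For this reason replicate number within each arm and slide were each fitted as a block. The slide block is shared by both arms. The other alternatives were normexp background correction, quantile normalization, median centring, other probe filters, the mean of a gene's probes, the deposited value table, no intensity trend, only the groups compared, and leaving out each array.

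Members and lists were chosen with earlier results of these data known. Named genes are the isoform genes and Cycs, the highest and lowest member of each complex whose groups did not overlap, members past the threshold and members at least 2-fold apart in both pairs. Other members were named after their values were seen. One gene that the rule names is not reported here.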

Additional observations from a re-analysis of the deposited data

How the results depend on the processing

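The count of OXPHOS subunits past the threshold stayed at 0 in Sirt1 KO minus WT, in resveratrol minus DMSO and in the difference of these differences under the alternatives run. In DMSO minus WT it was 7 with the replicate block, which pairs nothing between these arms, and 0 under the other alternatives. The replicate block left the median differences at -0.10 for Sirt1 KO minus WT and 0.20 for resveratrol minus DMSO and changed no other call. For Sirt1 KO minus WT the median was 0.312 with normexp on local background and -0.556 with the slide block, and under 0.5 of its full size with quantile normalization (-0.0437), normexp on 1 background per array (-0.0445) and in the authors' table (-0.0428). For DMSO minus WT it was 0.363 with normexp on local background and 0.343 with the slide block, and also above 0 with quantile normalization (0.00478) and in the authors' table (0.052). Over all genes the medians were 0.002, 0.064, -0.003 and 0.094 in that order, so in the authors' table the members lay below all genes. For resveratrol minus DMSO the median was 0.0622 in the authors' table. The median of the difference of differences was 0.125 with quantile normalization, -0.147 with normexp on local background, 0.216 with normexp on 1 background per array, 0.78 with the slide block and 0.119 in the authors' table. Subunits higher in both resveratrol pairs numbered 40 with quantile normalization and 40 in the authors' table, and subunits lower in both Sirt1 KO pairs numbered 0 with normexp on local background. The median of replicate 2 minus replicate 1 was 0.366 with quantile normalization, 1.378 with median centring, 1.053 and 1.06 with the normexp settings and 0.314 in the authors' table, and it was above that of all genes in each. Leaving out 1 array sets unequal replicate numbers against each other, and the medians then ran from -0.769 (without Sirt1 KO 2) to 0.597 (without Sirt1 KO 1) for Sirt1 KO minus WT, from -0.442 (without resveratrol 2) to 0.876 (without resveratrol 1) for resveratrol minus DMSO, from -0.715 (without WT 1) to 0.522 (without WT 2) for DMSO minus WT and from -0.404 (without resveratrol 2) to 1.007 (without Sirt1 KO 2) for the difference of differences. Without WT 1, WT 2, DMSO 1 and DMSO 2 the medians also passed 1.5 times the full value, at -0.715 and 0.517 for Sirt1 KO minus WT and -0.381 and 0.776 for resveratrol minus DMSO. Of 800 values for named genes under the alternatives, 705 kept their direction and 95 changed sign. Part of the 705 could not change, since some alternatives leave the difference of a comparison as it is. The background settings used the median spot signal, since no mean signal was in the files. Apart from the leaving out of arrays, the causes of these changes were not tested.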
